A study of Mus musculus with 15 samples.

Results

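The effect of IL-33 deficiency on gene expression was compared between 2 mouse fat depots, as the knockout effect in inguinal white fat minus the knockout effect in brown fat. All 15 of the 15 libraries of the series were used, and the genes described are those whose response was opposite in the depots or limited to 1 of them. Brown adipose tissue was from newborns of postnatal day 0.5, where 4 libraries were labelled wild type and 4 IL-33 knockout. Inguinal white adipose tissue was from mice of postnatal day 24, where 4 libraries were wild type and 3, numbered 2 to 4, were knockout. Both genotypes were on the C57BL/6 background in both depots. The labels name no treatment, sex or hour of sampling, and the sources used here do not say which part of Il33 was deleted. Depot and age differed together, so every difference described here is between brown fat of day 0.5 and inguinal fat of day 24, and the share of either cannot be told apart. The labels do not state whether libraries of 1 group are from different animals, so p-values reflect only the spread among these libraries, and that spread may be technical. In whole tissue, fewer cells of a type and less RNA per cell cannot be told apart either.

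Brown adipocytes burn fatty acids to make heat. The uncoupling protein UCP1 lets protons cross the inner mitochondrial membrane without making ATP, and beige adipocytes, which appear within inguinal fat, can do the same. IL-33 is a cytokine released from the nuclei of stressed or damaged cells. It binds the receptor ST2 on group 2 innate lymphoid cells, mast cells and other immune cells, and the series asks how this pathway bears on heat production in both kinds of fat.

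Il33 (ENSMUSG00000024810) was read first, as a check of the labels. Levels are CPM, counts brought to a common library total after scaling between libraries by the TMM method, and serve to compare 1 gene across libraries. Inguinal wild-type libraries had 3.45, 4.61, 3.82 and 3.55 CPM of Il33, in the order of their numbers, which is kept below. Inguinal knockout libraries had 0.346, 0.471 and 0.0791 CPM. Every inguinal knockout library was far below every wild-type one. Brown libraries had 1.82, 3.21, 2.01 and 1.73 CPM when wild type and 0.413, 1.75, 1.41 and 0.594 CPM when labelled knockout. Labelled knockout libraries 1 and 4 were low and library 3 just under the wild-type range, while library 2 lay inside it, and its exact 95% Poisson interval of 1.32 to 2.27 CPM, which covers counting error only, overlapped the lower part of the wild-type range. The log2 change was -3.73 (95% interval -4.85 to -2.60) in inguinal fat (edgeR adjusted p = 0.000435) and -1.08 (95% interval -1.94 to -0.21) in brown fat (edgeR adjusted p = 0.116, not passed). Their difference was -2.65 (SE 0.66, edgeR adjusted p = 0.0218), a call lost without inguinal knockout library 2 or 4 (edgeR adjusted p at most 0.0529). Il33 does not settle the genotype of every brown library, so the term labelled knockout is kept for that group.

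Library totals ran from 26059635 to 53923009 counts. Among the brown libraries, labelled knockout library 1 stood apart. On the first principal component of the brown libraries (39.6% of their variance) it lay at -38.1, beyond the wild-type libraries at -29.0 to -21.1, while labelled knockout libraries 2, 3 and 4 lay at 51.3, 24.7 and 58.8. It also held 26.4 CPM of the heat shock gene Hspa1a, which was at most 1.37 CPM elsewhere. Labelled knockout library 4 held 45.4 CPM of the skin keratin gene Krt5, against at most 0.461 CPM elsewhere. Summed markers of brown adipocytes were higher in brown fat (5446 to 9613 CPM in wild type) than in inguinal fat (1306 to 1956), with each of the 9 markers detected in both. Skeletal muscle markers summed to 2889 to 4904 CPM in wild-type and 2946 to 4852 in labelled knockout brown libraries. In inguinal fat they summed to 196 to 499.8 CPM in wild type and to 87.5 to 105 in knockout, without overlap. Other marker sums that did not overlap between the inguinal genotypes were those of brown adipocytes (1306 to 1956 in wild type, 2588 to 3193 in knockout), B cells (126 to 189 in wild type, 93.6 to 112 in knockout), endothelium (1535 to 1844 and 1296 to 1450), nerve and Schwann cells (1110.4 to 1337 and 767 to 919.9), white adipocytes (2180.2 to 2585 and 1941 to 2076), mast cells (68.9 to 75.8 and 115 to 137) and neutrophils (5.40 to 7.40 and 8.71 to 9.82). The white adipocyte sum includes Nnat, at 604 to 679 CPM in inguinal wild-type and 137 to 189 in inguinal knockout libraries. Among single genes, 5932 of all 16858 (35.2%) did not overlap between the inguinal genotypes. Of 8 white adipocyte markers tested, 1 rose (7.08% of all genes) and 1 fell (6.26%) in inguinal fat. Of 13 B-cell markers tested, 0 rose and 0 fell there. Of 14 endothelial markers 0 rose and 7 fell, and of 11 nerve and Schwann cell markers 1 rose and 4 fell. Of 9 mast cell markers 4 rose and 0 fell, and of 10 neutrophil markers 2 rose and 0 fell. The brown adipocyte sum includes Ucp1, at 602 to 1049.7 CPM in inguinal wild-type and 1621 to 2099 in inguinal knockout libraries. The part of these marker sums in the inguinal results below was not tested.

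Of 16858 genes tested, 1517 (9.0%) had knockout effects that differed between the depots at a Benjamini-Hochberg adjusted p below 0.05 (edgeR quasi-likelihood test, all 15 libraries in 1 fit). The difference was positive, meaning more expression with knockout in inguinal than in brown fat, for 809 genes (4.80%), and negative for 708 (4.20%). In the same fit the inguinal effect was called for 2249 genes (13.3%) and the brown effect for 1151 (6.83%). Of the 1517 genes, 1307 (86.2%) had effects of unlike sign, against 8066 of all 16858 (47.8%), a gap that choosing genes by their difference fixes in part. The count rose to 3571 (21.2%) without labelled knockout brown library 1, and 1515 of the 1517 were called there too. It dropped to 992 without labelled knockout brown library 4, 1011 without brown wild-type library 4, 818 and 632 without inguinal knockout libraries 2 and 3, and 969, 967 and 980 without inguinal wild-type libraries 2, 3 and 4. The inguinal count was 3602 without labelled knockout brown library 1, 1015 and 1089 without inguinal knockout libraries 2 and 3, and 1440, 1464 and 1387 without inguinal wild-type libraries 2, 3 and 4. The brown count was 4116, 591, 761 and 392 without labelled knockout brown libraries 1, 2, 3 and 4, and 390 and 419 without brown wild-type libraries 3 and 4. In all, 552 genes were called whichever library was left out. The brown count was far lower with the brown libraries alone in the fit, where 41 of 15796 genes (0.260%) were called, and the inguinal libraries alone gave 4498 of 15710 (28.6%).

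**Figure D1:**
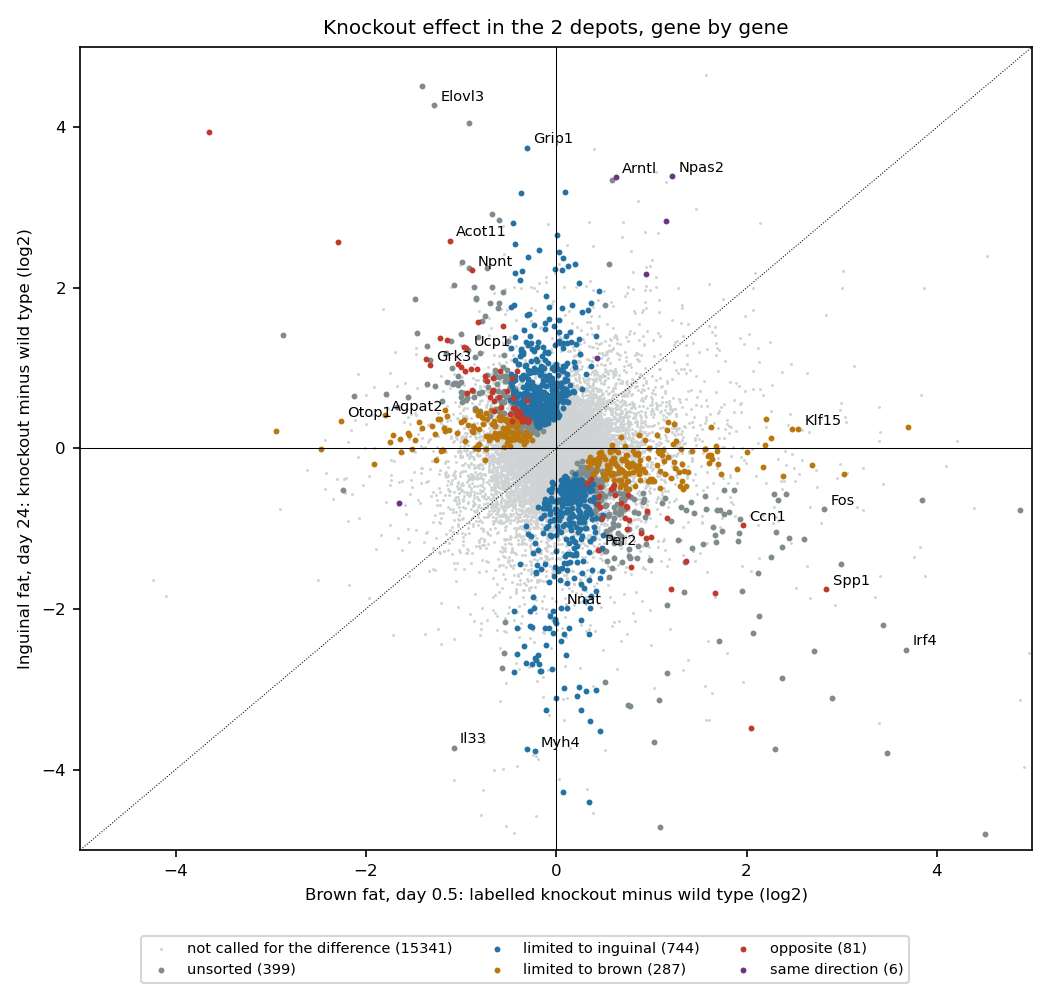
Each point is 1 of 16858 genes, placed by its log2 effect of the labelled knockout in brown fat of day 0.5 (x axis) and its log2 effect of the knockout in inguinal fat of day 24 (y axis), coloured by class among the 1517 genes whose effects differed; 24 genes lie outside the range of 5 drawn. Genes limited to inguinal fat (744) spread along the vertical axis, genes limited to brown fat (287) along the horizontal axis, and the 81 opposite genes fill the upper left and lower right, while few coloured points lie near the dotted line of equal effects. These positions follow from the rules by which the genes were called and sorted.

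The 1517 genes were sorted by their effects in each depot. Both effects were called with unlike signs for 81 genes, termed opposite. For 744 genes the inguinal effect was called and the brown effect was not and was under 0.5 on the log2 scale, termed limited to inguinal fat, of which 428 rose and 316 fell. For 287 genes the reverse held, termed limited to brown fat, of which 160 rose and 127 fell. Both effects were called with the same sign for 6 genes, and 399 met none of these rules. An effect that was not called is not shown to be absent, and its interval is given for the genes described. In the scatter of both effects most called genes lie along the axes or where the effects have unlike signs, and few lie near the diagonal. Choosing genes by their difference and sorting them by these rules fixes that layout.

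The opposite class held 50 genes that rose in inguinal and fell in brown fat and 31 with the reverse. In 57 of the 81 the knockout and wild-type libraries did not overlap in either depot, as in 556 of all 16858 genes (3.30%), a gap that choosing genes by both calls fixes in part. All 81 differed between the depots whichever library was left out, but membership of the class, which needs 3 calls at once, depended on single libraries. The class had 502 genes without labelled knockout brown library 1. It had 26 to 47 without labelled knockout brown library 2 or 4, brown wild-type library 3 or 4, inguinal knockout library 2 or 3, or any 1 inguinal wild-type library. With each effect fitted on its own depot's libraries, 8 genes were opposite, namely Acot11, Agpat2, Btg1, Ccn1, Fos, Grk3, Jun and Mapk1ip1, of which Acot11, Ccn1 and Grk3 were among the 81. Btg1 and Mapk1ip1 are named here after their values were seen.

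Some genes of heat production, among them Ucp1, Elovl3 and Acot11, rose with knockout in inguinal fat while their brown values were below 0. Of 28 thermogenic genes tested, 7 had a positive difference (4.80% of all genes did), namely Ucp1, Elovl3, Acot11, Otop1, Letmd1, Fabp3 and Gk. In inguinal fat 9 of the 28 rose (7.08% of all genes) and 1 fell (6.26%). In brown fat 0 rose (4.16% of all genes) and 2 fell (2.67%), and 1 of the 28 was called with brown libraries alone (0.260%). The list's median effect was 0.54 in inguinal and 0.05 in brown fat, against -0.04 and 0.01 over all genes tested. A negative difference was called for 1 of the 28 without labelled knockout brown library 1 and for 2 without inguinal knockout library 4. The sum of brown adipocyte markers given above was higher in inguinal knockout, but it includes Ucp1 and so is not independent of these values. Of its 9 markers, 3 rose in inguinal fat (7.08% of all genes). The part of brown adipocyte content in the thermogenic values was not tested. Ucp1 (ENSMUSG00000031710) stood at 2481, 3247, 6382 and 6779 CPM in brown wild-type libraries and at 1558, 3233, 1869.7 and 3236 in labelled knockout ones. In inguinal fat it stood at 602, 928, 1049.7 and 701 CPM in wild type and 2099, 2017 and 1621 in knockout. All inguinal knockout libraries were above all wild-type ones, whereas in brown fat the groups overlapped, with 2 wild-type libraries above every other brown library. Its effect was 1.22 (95% interval 0.48 to 1.96) in inguinal fat (edgeR adjusted p = 0.0327) and -0.93 (95% interval -1.63 to -0.24) in brown fat (edgeR adjusted p = 0.0952, not passed). The difference of 2.15 (SE 0.47, edgeR adjusted p = 0.0147) was called whichever library was left out. The inguinal knockout range of 1621 to 2099 CPM lay within the range of 1558 to 3236 CPM of labelled knockout brown fat.

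The promoter of Ucp1 is shown because the difference of this gene is the one the series bears on most directly. The RefSeq window runs from 250 bases before to 50 after the transcription start (GRCm38.p6, chr8:83290098-83290397, plus strand). Capitals mark the letters AGGTCA, the core to which ROR and related nuclear receptors bind, and TGACG, a cAMP response half-site, each searched on both strands.

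Ucp1 promoter: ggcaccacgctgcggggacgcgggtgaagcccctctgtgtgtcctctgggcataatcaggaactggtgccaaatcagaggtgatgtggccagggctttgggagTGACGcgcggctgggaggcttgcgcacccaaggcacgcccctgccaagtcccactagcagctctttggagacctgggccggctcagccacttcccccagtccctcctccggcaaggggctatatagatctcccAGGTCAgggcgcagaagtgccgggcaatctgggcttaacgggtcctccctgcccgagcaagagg

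Among 12003 genes tested with a promoter in the RefSeq table, AGGTCA was present in 15.4% and TGACG in 32.7%. Of the 628 such genes with a positive difference the shares were 18.8% and 32.2%. Of the 515 with a negative difference they were 15.5% and 33.0%. The half-site was thus about as frequent in either direction as in all promoters. A match is a description of these letters and not evidence of binding.

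Elovl3 (ENSMUSG00000038754), an elongase of very long chain fatty acids that is induced by cold in fat, had a larger difference than the other 6 called genes of the thermogenic list. It was at 1.95, 3.83, 7.02 and 3.77 CPM in inguinal wild-type and 88.9, 93.9 and 54.5 CPM in inguinal knockout libraries. In brown fat it stood at 3.23, 6.97, 7.74 and 12 CPM in wild type and 0.468, 3.81, 2.22 and 5.79 CPM in labelled knockout. The inguinal groups were far apart, and the brown groups overlapped. Its effect was 4.28 (95% interval 2.94 to 5.61) in inguinal fat (edgeR adjusted p = 0.000949) and -1.28 (95% interval -2.50 to -0.06) in brown fat (edgeR adjusted p = 0.186, not passed), and the difference was 5.56 (SE 0.83, edgeR adjusted p = 0.00214).

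Acot11 (ENSMUSG00000034853), an acyl-CoA thioesterase of brown fat, was opposite. It stood at 34.8, 59.6, 40.02 and 33.2 CPM in inguinal wild-type and 309.9, 296 and 151 CPM in inguinal knockout libraries. Brown wild-type libraries held 23.5, 20.6, 14.3 and 16.7 CPM and labelled knockout ones 10.7, 8.37, 8.55 and 6.98 CPM. The genotypes did not overlap in either depot. Acot11 rose by 2.59 in inguinal fat (edgeR adjusted p = 5.84e-05) and fell by 1.12 in brown fat (edgeR adjusted p = 0.0188, and 0.0496 with brown libraries alone), a difference of 3.71 (SE 0.36, edgeR adjusted p = 7.01e-05).

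Grk3 (ENSMUSG00000042249), a kinase that turns off G-protein-coupled receptors, was also opposite, and its brown fall was called with brown libraries alone too (edgeR adjusted p = 0.0255). Brown libraries held 95.3, 103, 143 and 153 CPM in wild type and 45.2, 47.3, 56.9 and 47.4 CPM in labelled knockout. Inguinal libraries held 43.4, 55.9, 58.8 and 38.8 CPM in wild type and 110.3, 112 and 81.6 CPM in knockout. The groups did not overlap, and the 2 depots changed places: brown fat had the higher level in wild type and inguinal fat in knockout. The difference was 2.37 (SE 0.25, edgeR adjusted p = 7.01e-05).

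Other genes rose in inguinal and fell in brown fat without overlap between genotypes. Npnt, which encodes the matrix protein nephronectin, changed by 2.23 in inguinal and -0.89 in brown fat, a difference of 3.11 (SE 0.31, edgeR adjusted p = 7.01e-05). Fbp2, a fructose bisphosphatase best known from muscle, changed by 1.37 and -1.22. The muscle marker sum was lower in the inguinal knockout libraries, and the part of muscle content in the Fbp2 values was not tested. Axin2, a target and inhibitor of WNT signalling, changed by 1.57 and -0.83. Dock8, an activator of the small GTPase CDC42 in immune cells, changed by 1.25 and -0.95. The differences were 2.60, 2.40 and 2.20 for Fbp2, Axin2 and Dock8 (edgeR adjusted p = 0.00104, 0.000985 and 0.00110). The brown falls of these 4 genes passed in the fit of all libraries and not with brown libraries alone (edgeR adjusted p from 0.0821 for Fbp2 to 0.146 for Axin2).

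**Figure D2:**
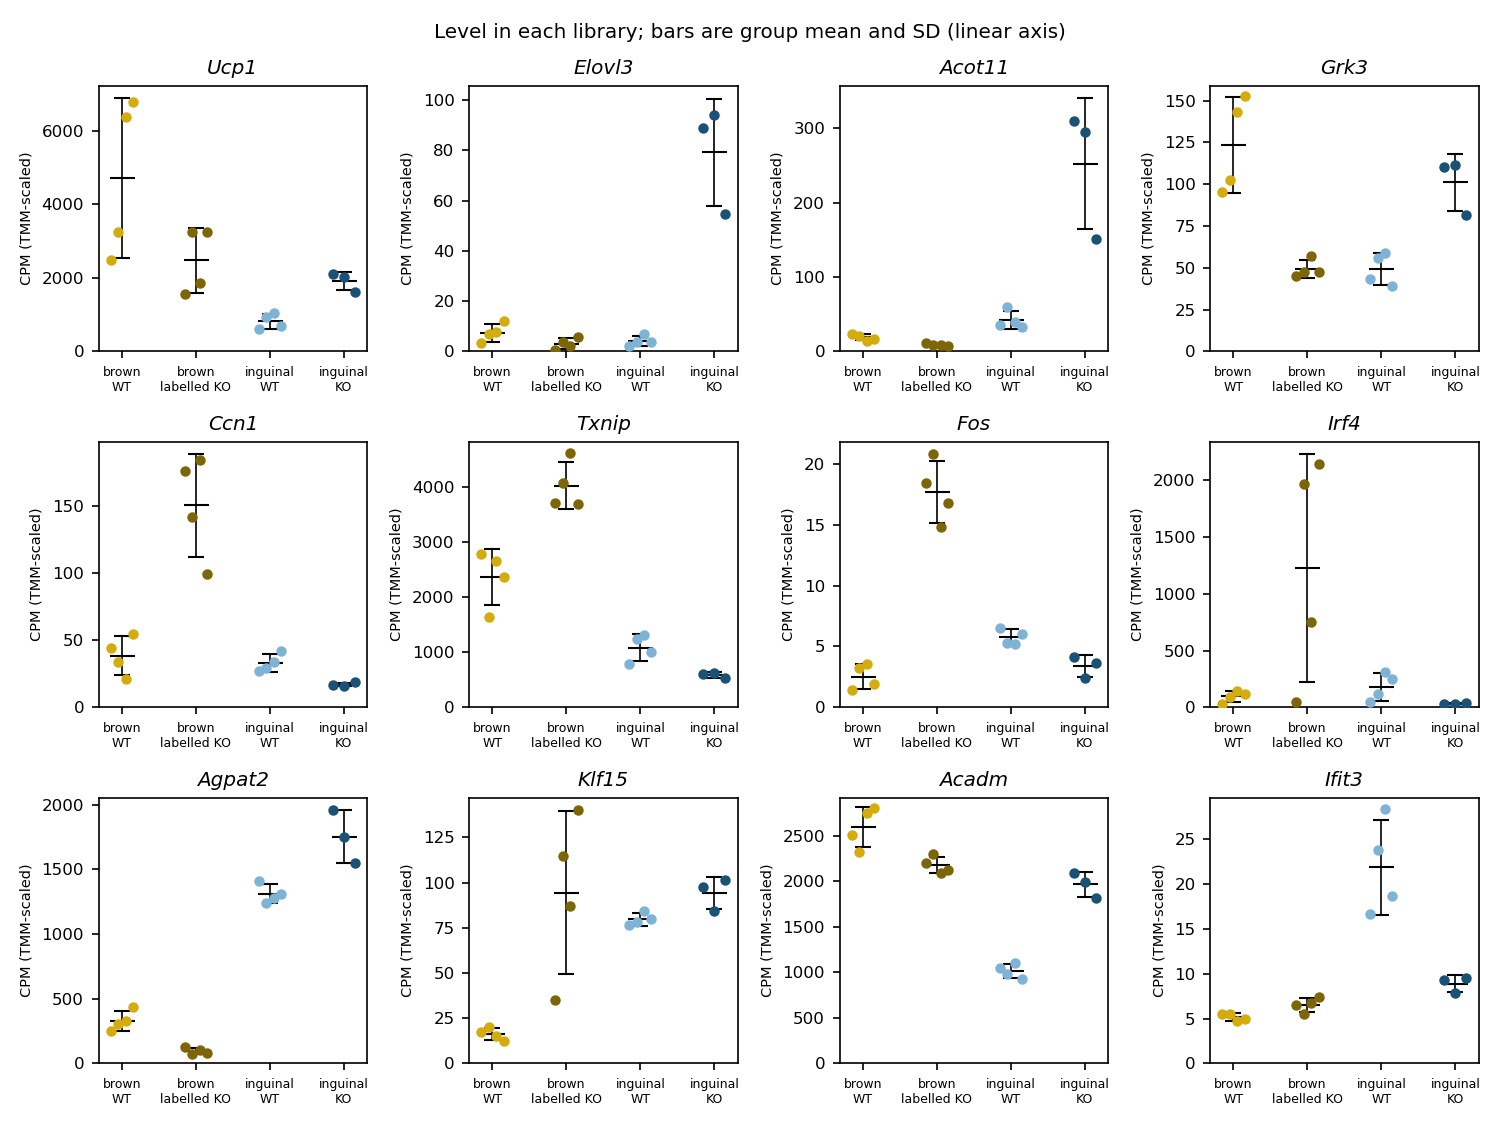
Level of 12 genes in each library (TMM-scaled CPM, linear axes from 0) in the 4 groups, with 4 libraries each except 3 for inguinal knockout; points are libraries and bars the group mean and SD. Acot11 and Grk3 rise from wild type to knockout in inguinal fat and are lower in labelled knockout brown fat. Ucp1 and Elovl3 rise likewise in inguinal fat, and their brown groups overlap, with a lower mean in labelled knockout. Ccn1, Txnip and Fos show the reverse of Acot11, as does Irf4 except in labelled knockout brown library 1, which is within the wild-type range. Agpat2 and Klf15 move mainly in brown fat, and Acadm and Ifit3 mainly in inguinal fat.

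Genes with the reverse pattern, lower in inguinal knockout and higher in labelled knockout brown fat, included Ccn1, Ccn2 and Timp3. The list of extracellular matrix genes had 1 of 27 with a negative difference, Thbs1 (4.20% of all genes), and 2 to 6 without labelled knockout brown library 2 or 3, brown wild-type library 2 or inguinal wild-type library 3. Ccn1 (ENSMUSG00000028195), a secreted matrix protein and a target of YAP and serum response factor, stood at 44.4, 33.9, 20.9 and 54.4 CPM in brown wild-type and 176, 141, 184 and 99.4 CPM in labelled knockout libraries. In inguinal fat it stood at 26.8, 29.4, 33.5 and 42.1 CPM in wild type and 16.6, 16 and 18.5 CPM in knockout. No groups overlapped within a depot, and labelled knockout brown library 1 was among the high ones. Ccn1 rose by 1.97 in brown fat (edgeR adjusted p = 0.00132) and fell by 0.95 in inguinal fat (edgeR adjusted p = 0.0374), a difference of -2.92 (SE 0.38, edgeR adjusted p = 0.000884). Its relative Ccn2 changed by 0.89 in brown and -1.05 in inguinal fat. Timp3, an inhibitor of matrix-degrading proteases, changed by 0.74 and -0.72.

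Spp1, which encodes the secreted phosphoprotein osteopontin, changed by 2.84 in brown and -1.76 in inguinal fat, a difference of -4.59 (SE 0.66, edgeR adjusted p = 0.00103). Its level was low throughout, at 0.108 to 0.601 CPM in brown wild-type, 0.839 to 3.37 in labelled knockout, 1.87 to 2.89 in inguinal wild-type and 0.622 to 0.765 in inguinal knockout libraries. Txnip (ENSMUSG00000038393), an abundant inhibitor of glucose uptake, stood at 2779, 1645, 2655 and 2365 CPM in brown wild-type and 3705, 4063, 4606 and 3695 CPM in labelled knockout libraries. Inguinal libraries held 783, 1235, 1315 and 998 CPM in wild type and 598, 624 and 526 CPM in knockout. The genotypes were separate in both depots, in opposite order. Txnip changed by 0.77 in brown and -0.89 in inguinal fat, a difference of -1.66 (SE 0.25, edgeR adjusted p = 0.00123). Atoh8, a transcription factor of the helix-loop-helix family, changed by 0.79 and -1.48. The brown rises of Ccn2, Timp3, Spp1, Txnip and Atoh8 were not called with brown libraries alone (edgeR adjusted p from 0.0571 for Timp3 to 0.113 for Ccn2), while their inguinal falls were called with inguinal libraries alone. The differences of Ccn2, Timp3 and Atoh8 were -1.94, -1.46 and -2.27 (edgeR adjusted p = 0.00433, 9.53e-05 and 7.01e-05).

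Immediate early genes, whose transcription starts quickly after a stimulus without new protein, rose in labelled knockout brown fat for the most part. Of 29 tested, 16 had a negative difference (4.20% of all genes did), and the list's median effect was 0.96 in brown and -0.22 in inguinal fat. The brown effect was called upward for 21 of the 29 (4.16% of all genes were) and for 7 with brown libraries alone (0.184%, 0.260% in either direction). Without labelled knockout brown library 1, 18 had a negative difference (9.92% of all genes there). In inguinal fat 2 of the 29 rose (7.08% of all genes) and 5 fell (6.26%). Fos (ENSMUSG00000021250), which pairs with JUN to form AP-1, stood at 1.38, 3.24, 3.58 and 1.89 CPM in brown wild-type and 18.4, 20.8, 14.8 and 16.7 CPM in labelled knockout libraries. Its inguinal levels were 6.54, 5.27, 5.23 and 5.99 CPM in wild type and 4.15, 2.42 and 3.64 CPM in knockout. All 4 labelled knockout brown libraries, library 1 included, were above every other library of the series, and the inguinal knockout libraries were below the inguinal wild-type ones. Fos rose by 2.81 in brown fat (edgeR adjusted p = 2.83e-05). Its inguinal value of -0.76 (95% interval -1.33 to -0.19) did not pass in the fit of all libraries and passed with inguinal libraries alone (edgeR adjusted p = 0.0730 and 0.00933). The difference was -3.57 (SE 0.37, edgeR adjusted p = 7.01e-05).

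The Fos promoter is shown for comparison with that of Ucp1, since both carry the cAMP response half-site and their differences had opposite signs. The RefSeq window is GRCm38.p6 chr12:85473640-85473939, plus strand, with TGACG in capitals at 2 positions.

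Fos promoter: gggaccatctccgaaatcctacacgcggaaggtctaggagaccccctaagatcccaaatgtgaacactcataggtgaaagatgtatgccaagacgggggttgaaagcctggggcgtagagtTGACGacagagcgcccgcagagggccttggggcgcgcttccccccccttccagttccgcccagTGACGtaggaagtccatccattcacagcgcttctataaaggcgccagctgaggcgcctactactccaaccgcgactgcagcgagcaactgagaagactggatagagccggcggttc

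An AP-1 site, spelled TGANTCA, was found in 6.765% of genes with a promoter in the table, in 7.325% of those with a positive difference and in 10.1% of those with a negative one. Neither the Fos nor the Ucp1 window held that spelling.

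Jun, the partner of FOS, stood at 13.3, 16.1, 14.6 and 18.6 CPM in brown wild-type and 82.7, 47.4, 50.6 and 47.5 CPM in labelled knockout libraries. Inguinal levels were 23.2, 26.8, 26.9 and 23.2 CPM in wild type and 18, 14.9 and 19.6 CPM in knockout. The order matched that of Fos, with no overlap in either depot and labelled knockout brown library 1 the highest. Jun rose by 1.87 in brown fat (edgeR adjusted p = 2.83e-05), had a value of -0.52 in inguinal fat (edgeR adjusted p = 0.0728, and 0.00517 with inguinal libraries alone) and differed by -2.38 (SE 0.25, edgeR adjusted p = 7.01e-05). Jund, a further AP-1 subunit, rose by 0.96 in brown fat (edgeR adjusted p = 0.00147, and 0.0534 with brown libraries alone) and had a value of -0.41 (95% interval -0.72 to -0.10) in inguinal fat (edgeR adjusted p = 0.0166 with inguinal libraries alone), a difference of -1.37 (SE 0.20, edgeR adjusted p = 0.00107). Nr4a1, a nuclear receptor of the early response, named after its values were seen, differed by -3.60 (SE 0.84, edgeR adjusted p = 0.0198). Its inguinal wild-type libraries ranged widely, from 10.8 to 43 CPM, and the call was lost without inguinal knockout library 2 or 3 (edgeR adjusted p at most 0.0703).

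Genes limited to brown fat numbered 287, and 230 of them had no overlap between the brown genotypes, as had 1582 of all 16858 genes (9.38%). Choosing genes by the brown call fixes this gap in part. Labelled knockout library 1 was not beyond the wild-type range in the direction of the effect for 50 of the 287. The class numbered 20 with each effect fitted on its own depot and 1343 without labelled knockout brown library 1. It numbered 115 to 174 without labelled knockout brown library 2 or 4, brown wild-type library 3 or 4, or any 1 inguinal library. Among those that rose were members of the list of glucocorticoid and fasting response genes, which hormone and nutrient signals switch on through the glucocorticoid receptor and FOXO factors. Of the 24 on that list, 15 had a negative difference (4.20% of all genes) and 19 rose in brown fat (4.16% of all genes), and 5 were called with brown libraries alone (0.260% in either direction). Without labelled knockout brown library 1, 20 had a negative difference (9.92%). The median effect of the list was 1.34 in brown and -0.06 in inguinal fat. The 1 member with a positive difference was Fgf21, a hormone of fasting, named after its values were seen, and its call was lost without brown wild-type library 3 or 4 or inguinal knockout library 3.

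Klf15 (ENSMUSG00000030087), a transcription factor of amino acid and lipid metabolism induced by glucocorticoids, stood at 17.4, 20.3, 15.1 and 12.1 CPM in brown wild-type and 35.3, 115, 87.3 and 140.4 CPM in labelled knockout libraries. Its inguinal levels were 76.3, 78.2, 84.5 and 79.7 CPM in wild type and 97.4, 84.1 and 101 CPM in knockout. The brown groups did not overlap, and library 1 was the lowest of the labelled knockout libraries. Klf15 rose by 2.54 in brown fat (edgeR adjusted p = 0.00102), while its inguinal value was 0.24 (95% interval -0.43 to 0.91), a rise that was called with inguinal libraries alone (edgeR adjusted p = 0.0432), where Klf15 was no longer limited to brown fat. The labelled knockout brown libraries thereby spanned the inguinal level of either genotype. The difference was -2.30 (SE 0.44, edgeR adjusted p = 0.00733).

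Cebpd, an early transcription factor of adipocyte formation, rose by 2.38 in brown fat and had an inguinal value of -0.34 (95% interval -1.14 to 0.46). Errfi1, a feedback inhibitor of EGF receptor signalling, rose by 2.17 in brown fat, with -0.23 (95% interval -0.84 to 0.37) in inguinal fat. Nfkbia, the inhibitor that holds NF-kB in the cytoplasm and a classic glucocorticoid target, rose by 1.31, with -0.01 (95% interval -0.31 to 0.29) in inguinal fat. For these 3 genes all labelled knockout brown libraries were above all wild-type ones. Their differences were -2.72, -2.41 and -1.32 (edgeR adjusted p = 0.00581, 0.00280 and 0.00107).

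Irf2bp2 (ENSMUSG00000051495), a transcriptional corepressor, was nearly constant among the inguinal libraries. It stood at 31, 33.1, 23.7 and 31.5 CPM in brown wild-type and 97.2, 103, 73.3 and 107 CPM in labelled knockout libraries. The inguinal libraries held 39.99, 38.4, 40.8 and 40.1 CPM in wild type and 40.2, 39.8 and 41.5 CPM in knockout. All labelled knockout brown libraries were above all others, and the inguinal genotypes were level, with an inguinal effect of 0.02 (95% interval -0.24 to 0.29). Its difference was -1.65 (SE 0.17, edgeR adjusted p = 7.01e-05). Tle3, a corepressor that favours white over brown adipocyte genes, rose by 1.06 in brown fat, with -0.21 (95% interval -0.65 to 0.23) in inguinal fat, a difference of -1.27 (SE 0.29, edgeR adjusted p = 0.0138). With brown libraries alone, the rises of Klf15, Errfi1, Nfkbia and Irf2bp2 were called (edgeR adjusted p = 0.0445, 0.0395, 0.0187 and 0.00813), and those of Cebpd and Tle3 were not (edgeR adjusted p = 0.0669 and 0.0831).

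For some genes with a negative difference, labelled knockout library 1 was within the wild-type range, and the following pair, Fkbp5 and Irf4, were named after their values were seen. Fkbp5, a chaperone of the glucocorticoid receptor, stood at 43.1, 67.1, 25.3 and 31.5 CPM in brown wild-type and 58.8, 283, 194 and 226 CPM in labelled knockout libraries, so library 1 alone lay within the wild-type range. Its difference of -2.15 (SE 0.58, edgeR adjusted p = 0.0374) was called without 3 of the 15 libraries and lost without any 1 of the others (edgeR adjusted p at most 0.0977). Irf4 (ENSMUSG00000021356), a transcription factor of fasting and thermogenesis in adipocytes and of lymphocytes, stood at 31, 89.3, 147 and 116 CPM in brown wild-type and 46.5, 1964, 749 and 2144 CPM in labelled knockout libraries. In inguinal fat it held 44.2, 119.8, 314 and 251 CPM in wild type and 30.9, 29.6 and 35.6 CPM in knockout. Labelled knockout brown libraries 2, 3 and 4 were above all others, and library 1 was within the wild-type range. The difference of -6.18 (SE 1.37, edgeR adjusted p = 0.0171) was lost without inguinal knockout library 2 or 3 (edgeR adjusted p at most 0.0624), and was -6.58 without labelled knockout brown library 1. The brown rises of Fkbp5 and Irf4 were not called with brown libraries alone (edgeR adjusted p = 0.0831 and 0.122).

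Falls limited to brown fat included enzymes of triglyceride synthesis. Agpat2 (ENSMUSG00000026922), which makes phosphatidic acid on the way to triglyceride and whose loss causes lipodystrophy, stood at 253, 304, 329.6 and 436 CPM in brown wild-type and 124, 75.3, 101 and 77.7 CPM in labelled knockout libraries. Inguinal levels were 1411, 1239.5, 1277 and 1312 CPM in wild type and 1957, 1750.5 and 1547 CPM in knockout. The genotypes did not overlap in either depot, lower with the label in brown fat and higher in inguinal fat. Agpat2 fell by 1.80 in brown fat (edgeR adjusted p = 3.94e-05). Its inguinal value of 0.42 (95% interval 0.04 to 0.80) did not pass (edgeR adjusted p = 0.135) and passed with inguinal libraries alone (edgeR adjusted p = 0.00775). The difference was 2.22 (SE 0.25, edgeR adjusted p = 0.000106). Dgat2, which makes triglyceride from diglyceride, fell by 1.22 in brown fat (edgeR adjusted p = 0.0229, and 0.136 with brown libraries alone), with 0.36 (95% interval -0.28 to 1.0) in inguinal fat, which was called with inguinal libraries alone (edgeR adjusted p = 0.0168). Its difference of 1.58 (SE 0.41, edgeR adjusted p = 0.0289) was called on leaving out any of 6 libraries and lost on leaving out any of the other 9 (edgeR adjusted p at most 0.0674). The lipogenesis list had 3 of 25 members with a positive difference (4.80% of all genes), Agpat2, Dgat2 and Agpat3, and 7 without labelled knockout brown library 1 (11.3% of all genes there). A negative difference was called for 3 of them without labelled knockout brown library 1 (9.92%) and for 1 without brown wild-type library 2. In brown fat 3 of the 25 rose (4.16% of all genes) and 2 fell (2.67%), and 1 of these 2, Agpat2, fell also with brown libraries alone (0.0760%).

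Otop1, a proton channel enriched in brown fat, stood at 53.7, 59.4, 135 and 133 CPM in brown wild-type and 28.1, 10.3, 21.9 and 19 CPM in labelled knockout libraries. The brown genotypes were separate, labelled knockout lower, while the inguinal groups overlapped. Otop1 fell by 2.26 in brown fat (edgeR adjusted p = 0.00342, and 0.0660 with brown libraries alone), with 0.34 (95% interval -0.41 to 1.08) in inguinal fat, a difference of 2.60 (SE 0.48, edgeR adjusted p = 0.00606).

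**Figure D3:**
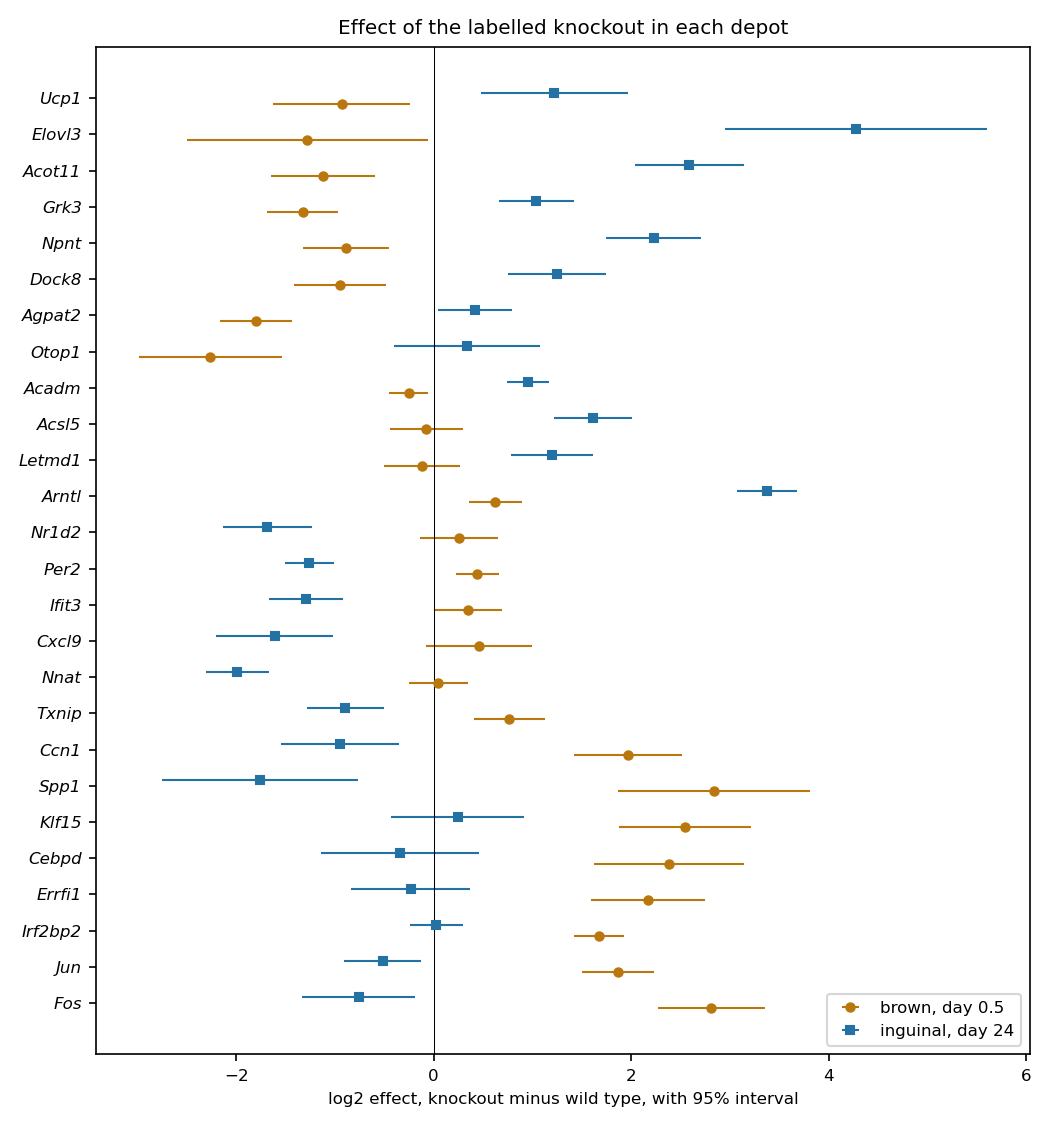
Log2 effect of the labelled knockout on 26 genes in brown fat of day 0.5 (circles) and inguinal fat of day 24 (squares), with 95% intervals from the fit of all 15 libraries. The paired symbols lie on opposite sides of 0 for Acot11 and Grk3, as for Ccn1 and Txnip in the reverse order, brown symbols alone are far from 0 for Otop1 and Klf15, and inguinal symbols alone for Acsl5, Letmd1 and Nnat.

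Of the 744 genes limited to inguinal fat, 742 had no overlap between the inguinal genotypes, as had 5932 of all 16858 genes (35.2%). Choosing genes by the inguinal call fixes this gap in part. With each depot fitted alone, 737 of the 744 were in the same class. The class numbered 367 and 304 without inguinal knockout libraries 2 and 3, and 463, 465 and 467 without inguinal wild-type libraries 2, 3 and 4. Fatty acid oxidation, the mitochondrial breakdown of fat that fuels heat production, was represented in it. Of 28 members tested, 16 had a positive difference (4.80% of all genes did), and the median effect was 0.56 in inguinal and -0.07 in brown fat. These 16 are counted whatever their class. In inguinal fat 19 of the 28 rose (7.08% of all genes did) and 1 fell (6.26%). In brown fat 0 rose (4.16% of all genes) and 3 fell (2.67%), and 0 were called with brown libraries alone (0.260%). With inguinal libraries alone 23 were called (28.6% of all genes). The higher sum of brown adipocyte markers in inguinal knockout, which includes Ucp1, stands beside these values too, and its part in them was not tested.

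Acadm (ENSMUSG00000062908), the dehydrogenase of medium-chain fatty acids, stood at 1053, 981, 1102 and 922 CPM in inguinal wild-type and 2091, 1994 and 1817 CPM in knockout libraries. In brown fat it stood at 2513, 2326, 2748 and 2808 CPM in wild type and 2196, 2297, 2093 and 2126 CPM in labelled knockout. Inguinal knockout thereby approached the brown level, and the brown genotypes were separate by a narrow margin in the other direction. Acadm rose by 0.96 in inguinal fat (edgeR adjusted p = 4.17e-05), with -0.25 (95% interval -0.45 to -0.06) in brown fat (edgeR adjusted p = 0.100), a difference of 1.21 (SE 0.14, edgeR adjusted p = 0.000108).

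Acsl5, which activates long-chain fatty acids by joining them to coenzyme A, rose by 1.61 in inguinal fat, with -0.07 (95% interval -0.44 to 0.30) in brown fat, or 0.09 without labelled knockout brown library 1. Slc25a20, the carrier that brings acylcarnitines into mitochondria and a gene outside the classes, rose by 0.84 in inguinal fat, with -0.54 (95% interval -0.89 to -0.19) in brown fat. Hadhb, the thiolase subunit of the trifunctional protein, rose by 0.83, with -0.06 (95% interval -0.26 to 0.14) in brown fat. The differences were 1.69, 1.38 and 0.89 (edgeR adjusted p = 0.00136, 0.00320 and 0.00162). Letmd1, a mitochondrial protein needed for heat production in brown fat, was at 178, 165, 162 and 145 CPM in inguinal wild type and 451, 392 and 273 CPM in knockout, a rise of 1.19. Its brown value was -0.12 (95% interval -0.50 to 0.27), where labelled knockout library 1 was above all wild-type libraries and the other 3 below all of them. Without library 1 the brown value was -0.36 (edgeR adjusted p = 0.0658). Its difference was 1.31 (SE 0.27, edgeR adjusted p = 0.00816).

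Nuclear genes of oxidative phosphorylation, the respiratory chain and ATP synthase, had smaller effects. Of 42 tested, 6 had a positive difference (4.80% of all genes did), with a median effect of 0.18 in inguinal and -0.01 in brown fat. The count was 2 or 3 without labelled knockout brown library 3 or 4, brown wild-type library 1, 3 or 4, or any 1 inguinal wild-type library, and edgeR called 0 without inguinal knockout library 2 or 3, where 13 of the 42 had an unadjusted p under 0.05. With all libraries in the fit, 14 of the 42 rose in inguinal fat (7.08% of all genes) and 0 fell (6.26%). In brown fat 2 rose (4.16%) and 0 fell (2.67%). Sdha, a subunit of complex II, differed by 0.57 (SE 0.14, edgeR adjusted p = 0.0185) and Atp5a1, of ATP synthase, by 0.55 (SE 0.14, edgeR adjusted p = 0.0209). The 95% intervals of their brown effects were -0.20 to 0.20 for Sdha and -0.26 to 0.13 for Atp5a1.

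Other rises limited to inguinal fat lay outside the fuel pathways. Grip1, a scaffold protein first described at synapses, stood at 0.182, 0.0864, 0.191 and 0.162 CPM in inguinal wild-type and 1.97, 2.49 and 1.90 CPM in knockout libraries, against 1.38 to 2.67 and 1.08 to 1.98 CPM in the brown groups. The inguinal knockout libraries thereby lay within the brown wild-type range. It differed by 4.06 (SE 0.43, edgeR adjusted p = 7.62e-05). Osgin1, a gene of the oxidative stress response, stood at 2.80, 2.02, 2.21 and 2.05 CPM in inguinal wild type and 18.3, 14.6 and 10.2 CPM in knockout, with 0.01 (95% interval -0.56 to 0.57) as its brown effect and a difference of 2.65 (SE 0.37, edgeR adjusted p = 0.000884). Asns, asparagine synthetase, a target of the amino acid response, rose by 0.70 in inguinal fat, with -0.22 (95% interval -0.40 to -0.04) in brown fat, a difference of 0.92 (SE 0.13, edgeR adjusted p = 0.000832).

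Of 28 interferon response genes tested, 14 fell in inguinal fat (6.26% of all genes did) and 1 rose (7.08%). Of the 28, 12 had a negative difference (4.20% of all genes did), and the median effect was -0.63 in inguinal and 0.19 in brown fat. Without labelled knockout brown library 1, 1 had a positive difference. Ifit3 (ENSMUSG00000074896), an antiviral protein induced by interferon, stood at 16.6, 23.8, 28.4 and 18.7 CPM in inguinal wild-type and 9.26, 7.87 and 9.58 CPM in knockout libraries. Brown libraries held 4.70 to 5.52 CPM in wild type and 5.53 to 7.40 CPM in labelled knockout. All inguinal knockout libraries were below all inguinal wild-type ones and still above the brown ones. Ifit3 fell by 1.29 in inguinal fat (edgeR adjusted p = 0.000297), with 0.35 (95% interval 0.00 to 0.69) in brown fat, and differed by -1.64 (SE 0.24, edgeR adjusted p = 0.00105). Ifit1, its neighbour in function, differed by -1.72 (SE 0.28, edgeR adjusted p = 0.00189). Cxcl9, a chemokine that attracts T cells, stood at 24.6 to 37.7 CPM in inguinal wild type and 8.43 to 11.9 CPM in knockout, and differed by -2.07 (SE 0.37, edgeR adjusted p = 0.00445). T-cell marker sums overlapped between the inguinal genotypes (16 to 26.2 CPM in wild type, 15.2 to 30.9 in knockout), whereas the B-cell, endothelial and nerve sums given above were lower in knockout, and their part in these values was not tested.

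Some genes of DNA replication also fell in inguinal fat. Of 28 cell cycle genes tested, 4 had a negative difference (4.20% of all genes did), with a median effect of -0.66 in inguinal and 0.28 in brown fat, and 7 were called without brown wild-type library 2. They were Mcm3, Mcm4, Mcm6 and Pcna. Mcm4 and Mcm6, subunits of the replication helicase, differed by -0.79 (SE 0.17, edgeR adjusted p = 0.00943) and -0.82 (SE 0.18, edgeR adjusted p = 0.0124). Pcna, the sliding clamp of DNA polymerase, differed by -0.60 (SE 0.14, edgeR adjusted p = 0.0158), a call lost without inguinal knockout library 3 (edgeR adjusted p = 0.0503). The brown intervals were -0.11 to 0.38 for Mcm4 and -0.12 to 0.41 for Mcm6.

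Nnat (ENSMUSG00000067786), which encodes neuronatin, a small membrane protein of the endoplasmic reticulum, had the lowest p among falls limited to inguinal fat. It stood at 609, 679, 604 and 611 CPM in inguinal wild-type and 148, 137 and 189 CPM in knockout libraries. Brown libraries held 5.01 to 7.98 CPM in wild type and 6.19 to 8.02 CPM in labelled knockout. The inguinal knockout level was far below wild type and far above brown fat, where the genotypes were level. Nnat fell by 1.99 in inguinal fat (edgeR adjusted p = 3.58e-06), with 0.04 (95% interval -0.25 to 0.34) in brown fat, and differed by -2.03 (SE 0.20, edgeR adjusted p = 7.01e-05).

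Skeletal muscle markers, whose sums were given above, fell in inguinal fat. Of 19 muscle markers tested, 14 had a negative difference (4.20% of all genes did) and 15 fell in inguinal fat (6.26%). Myh4, a myosin of fast muscle fibres, stood at 19.9, 95.2, 63.1 and 36.5 CPM in inguinal wild-type and 3.49, 2.89 and 5.30 CPM in knockout libraries. The wild-type libraries ranged widely and all lay above knockout. It differed by -3.55 (SE 0.59, edgeR adjusted p = 0.00321), a call that limma-voom did not make with either kind of weight. Pvalb, a calcium buffer of fast muscle, differed by -3.43 (SE 0.45, edgeR adjusted p = 0.000690). Muscle transcripts were abundant in brown libraries of both genotypes, with overlapping sums. How much muscle tissue each inguinal sample held was not tested.

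Clock genes differed between the depots in both directions. Of 20 tested, 3 had a positive difference (4.80% of all genes), Arntl, Npas2 and Clock, and 5 a negative one (4.20%), Dbp, Nr1d2, Per2, Per1 and Tef. The transcription factors ARNTL (BMAL1), CLOCK and NPAS2 drive the clock through E-boxes, PER proteins hold them back, NR1D2 represses Arntl, and DBP and TEF carry the rhythm to other genes. Npas2, Dbp, Clock and Per1 were named after their values were seen. Arntl (ENSMUSG00000055116) stood at 2.47, 2.94, 2.44 and 2.67 CPM in inguinal wild-type and 31.7, 28.2 and 22.2 CPM in knockout libraries. In brown fat it stood at 11, 11.1, 12.2 and 13.5 CPM in wild type and 17.7, 19.8, 16.4 and 19.8 CPM in labelled knockout. The genotypes were separate in both depots and in the same order, by a wide margin in inguinal fat and a narrow one in brown fat. Arntl rose by 3.38 in inguinal fat (edgeR adjusted p = 9.95e-10) and 0.62 in brown fat (edgeR adjusted p = 0.0114, and 0.0720 with brown libraries alone), a difference of 2.75 (SE 0.19, edgeR adjusted p = 1.56e-06). Npas2 changed by 3.39 and 1.22, a difference of 2.17 (SE 0.52, edgeR adjusted p = 0.0185) that was lost without inguinal knockout library 2 (edgeR adjusted p = 0.0508). Its brown groups overlapped, with labelled knockout library 1 at 7.35 CPM and wild type at 5.91 to 11.8 CPM. The brown change was not called with brown libraries alone (edgeR adjusted p = 0.150).

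Negative differences were found for repressors and outputs of the clock. Per2 (ENSMUSG00000055866) stood at 45.7, 53, 55 and 54.2 CPM in inguinal wild-type and 23.3, 21.2 and 20.6 CPM in knockout libraries. Brown libraries held 47.2, 53.5, 47 and 54.5 CPM in wild type and 59.8, 71.5, 81.5 and 62.3 CPM in labelled knockout. It was the 1 opposite gene among the 20, lower in inguinal knockout and higher in labelled knockout brown fat without overlap. Per2 changed by -1.26 and 0.44 (edgeR adjusted p = 2.03e-05 and 0.0217, the latter 0.125 with brown libraries alone), a difference of -1.70 (SE 0.16, edgeR adjusted p = 5.75e-05). Nr1d2 fell by 1.69 in inguinal fat, with 0.26 (95% interval -0.14 to 0.65) in brown fat, a difference of -1.94 (SE 0.28, edgeR adjusted p = 0.00107). Tef fell by 1.06 in inguinal fat, with -0.14 (95% interval -0.38 to 0.10) in brown fat, a difference of -0.91 (SE 0.17, edgeR adjusted p = 0.00462). Dbp stood at 48.9, 51.5, 43.4 and 44 CPM in inguinal wild type and 7.09, 5.14 and 8.86 CPM in knockout, and differed by -2.17 (SE 0.45, edgeR adjusted p = 0.00999), or by -1.59 without labelled knockout brown library 1, which at 4.60 CPM was above the other labelled knockout libraries (1.19 to 2.14) and the wild-type ones.

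Promoters of Arntl and Tef are shown because these genes moved in opposite directions in inguinal fat. The Arntl window is the second of 2 start sites in the RefSeq table (GRCm38.p6, chr7:113207261-113207560, plus strand), with AGGTCA in capitals, and the window of the other start held none of the letters searched. The Tef window is the first of 2 (GRCm38.p6, chr15:81802423-81802722, plus strand), with the E-box CACGTG in capitals, which the other window also held.

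Arntl promoter: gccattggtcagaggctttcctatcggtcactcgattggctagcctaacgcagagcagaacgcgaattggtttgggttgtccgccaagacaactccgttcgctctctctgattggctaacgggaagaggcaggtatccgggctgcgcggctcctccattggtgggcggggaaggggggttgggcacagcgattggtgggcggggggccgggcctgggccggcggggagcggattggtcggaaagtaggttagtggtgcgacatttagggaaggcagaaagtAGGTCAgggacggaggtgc

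Tef promoter: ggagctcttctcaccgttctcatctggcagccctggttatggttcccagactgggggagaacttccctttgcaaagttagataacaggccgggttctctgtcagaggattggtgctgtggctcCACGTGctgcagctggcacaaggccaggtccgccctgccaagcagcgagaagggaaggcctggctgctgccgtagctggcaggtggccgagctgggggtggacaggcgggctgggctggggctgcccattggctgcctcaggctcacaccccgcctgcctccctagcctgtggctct

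The E-box CACGTG was present in 11.01% of genes with a promoter in the table, in 9.554% of those with a positive difference and in 11.07% of those with a negative one.

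**Figure D4:**
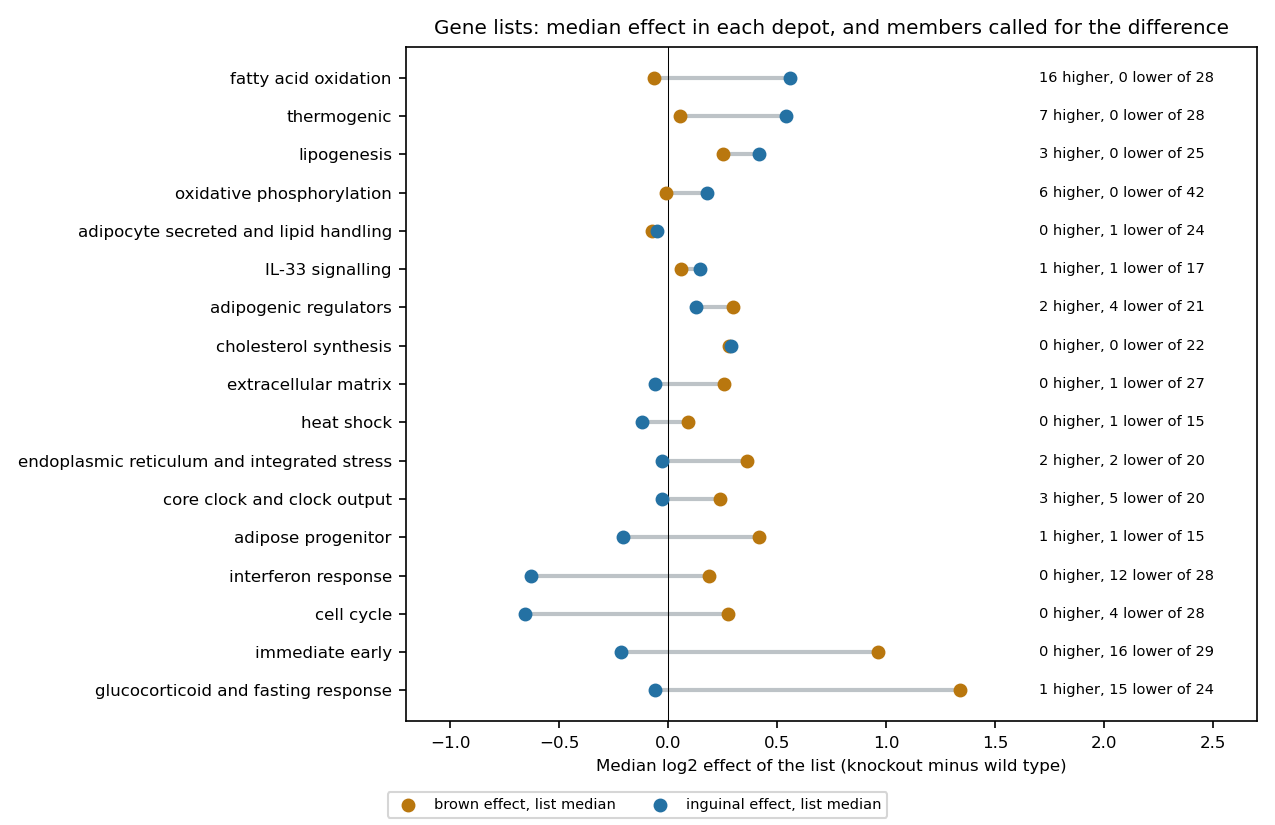
Median log2 effect of the labelled knockout in brown fat (brown points) and of the knockout in inguinal fat (blue points) for 17 gene lists, with the number of members whose effects differed between depots and the number tested at the right. Fatty acid oxidation and thermogenic genes have their inguinal medians to the right of their brown ones, and the interferon, cell cycle, immediate early and glucocorticoid and fasting lists have theirs to the left, while the cholesterol synthesis medians nearly coincide.

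Of 17 genes of IL-33 signalling tested, Il33 was the 1 with a negative difference (4.20% of all genes) and Irak1 the 1 with a positive one (4.80%), shares near those of all genes. Without labelled knockout brown library 1 there were 4 negative (9.92%) and 2 positive (11.3%). Irak1, a kinase downstream of ST2 and MyD88, stood at 108, 111, 102 and 103 CPM in inguinal wild-type and 152, 148 and 134 CPM in knockout libraries. It rose by 0.45 in inguinal fat, with -0.11 (95% interval -0.30 to 0.09) in brown fat. The difference of 0.56 (SE 0.14, edgeR adjusted p = 0.0204) was lost without inguinal knockout library 2 or 3 (edgeR adjusted p at most 0.0566). Group 2 innate lymphoid and type 2 markers summed to 20.8 to 23.1 CPM in brown wild-type and 24.3 to 40.2 in labelled knockout libraries, without overlap, and to 42.7 to 48.8 and 33.0 to 54.9 CPM in the inguinal groups, which overlapped. Of the 14 markers, 2 had no counts in brown wild type and 7 passed the expression filter. Of these 7, 1 rose in brown fat (4.16% of all genes), and 0 were called with brown libraries alone (0.260%). Which cells carried the sum was not tested.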

How the data were processed

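RNA of 15 mouse fat libraries was sequenced after TRIsure and spin-column extraction and stranded mRNA library preparation, per the labels' protocols. The deposited values are raw read counts per gene with no normalization by the authors. TopHat2 2.1.0, featureCounts, Subread, edgeR and the genome build mm9 are named in the submitters' processing notes, and the role of each, the annotation and the strand setting are unstated in the sources used here, so overlapping and antisense genes are uncertain. Of 37991 gene identifiers, 32919 were matched to a symbol and 26485 had at least 1 count.

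Genes were kept by filterByExpr (minimum count 10), scaled by TMM and tested with edgeR 4.0.16 (quasi-likelihood F-test, robust dispersions, R 4.3.3) in 1 fit of 4 groups, with contrasts for each depot's effect and for their difference. Calls used a Benjamini-Hochberg adjusted p below 0.05. SE is the absolute log2 change over the square root of F. The fit was tested on simulated counts. These had the same dispersion per gene in all groups, so they do not test unequal spread between the depots. Total counts per library were 26059635 to 53923009, and no pair of libraries agreed within sampling noise (chi-square per degree of freedom at least 14.7). Replicate numbers did not pair libraries: over 21 same-numbered pairs, correlations of deviations from group means ran from -0.072 to 0.141. Of 591 entries in 31 gene lists, 586 were matched. The members and lists were chosen with earlier results of these data known. Named genes are Il33, Ucp1, the called genes of at least 1 CPM without overlap between genotypes that had the largest positive and negative differences (10 each for opposite, 8 each for limited to inguinal, 6 each for limited to brown), and up to 4 members per pathway list by smallest p, of which the text names a part. Fabp3, which completes a count, and Krt5 were named after their values were seen, as were the genes so marked in the text. Promoters came from RefSeq tables of GRCm38.p6, a build other than that of the counts. Alternatives were DESeq2 size factors, other filters, the DESeq2 1.42.0 Wald test, limma-voom (limma 3.58.1) with library or group weights, non-robust dispersions, a replicate block, each depot's libraries alone, other size limits and leaving out each library in turn.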

Additional observations from a re-analysis of the deposited data

Results flagged for a closer look

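For 56 genes described above the knockout effect differed between the depots by a test of the difference itself (edgeR), and these differences are gathered here as log2 values, inguinal effect minus brown effect. Apart from Il33 and Ucp1, the genes were chosen by this same difference or after their values were seen. That all 56 differed is thus largely fixed by the choice. For heat production, lipid metabolism and mitochondria they were 2.15 for Ucp1, 5.56 for Elovl3, 3.71 for Acot11, 2.60 for Otop1, 1.31 for Letmd1, 2.22 for Agpat2, 1.58 for Dgat2, 1.21 for Acadm, 1.69 for Acsl5, 0.89 for Hadhb, 1.38 for Slc25a20, 0.57 for Sdha, 0.55 for Atp5a1 and 2.60 for Fbp2. For other genes with a positive difference they were 2.37 for Grk3, 3.11 for Npnt, 2.40 for Axin2, 2.20 for Dock8, 4.06 for Grip1, 2.65 for Osgin1, 0.92 for Asns and 0.56 for Irak1.

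For immediate early, matrix and hormone-responsive genes the differences were -3.57 for Fos, -2.38 for Jun, -1.37 for Jund, -3.60 for Nr4a1, -2.92 for Ccn1, -1.94 for Ccn2, -4.59 for Spp1, -1.46 for Timp3, -1.66 for Txnip, -2.27 for Atoh8, -2.30 for Klf15, -2.72 for Cebpd, -2.41 for Errfi1, -1.65 for Irf2bp2, -1.32 for Nfkbia, -1.27 for Tle3, -2.15 for Fkbp5 and -6.18 for Irf4. For immune, replication and muscle genes they were -2.65 for Il33, -1.64 for Ifit3, -1.72 for Ifit1, -2.07 for Cxcl9, -0.79 for Mcm4, -0.82 for Mcm6, -0.60 for Pcna, -3.55 for Myh4 and -3.43 for Pvalb. For Nnat, outside these groups, the difference was -2.03. For clock genes they were 2.75 for Arntl, 2.17 for Npas2, -1.70 for Per2, -1.94 for Nr1d2, -2.17 for Dbp and -0.91 for Tef.

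In 11 of 168 gene and group combinations, 1 of the 4 libraries stood far from the other 3 by Dixon's criterion, which chance meets in about 1 in 20 groups. Labelled knockout brown library 1 was the outlying one for Jun (82.7 CPM), Letmd1 (628), Mcm6 (26.6) and Pvalb (6.77), and labelled knockout brown library 4 for Nnat (8.02). Brown wild-type library 1 was outlying for Sdha (2597) and Mcm4 (14.8), and brown wild-type library 3 for Nr1d2 (101). In inguinal wild type the outlying values were those of Jund in library 1 (15), Nnat in library 2 (679) and Asns in library 4 (115). Of the 11 values, 4 were thus in the library that also stood apart on the first brown component.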

How the results depend on the processing

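No difference between depots of the 56 named genes changed sign under the alternatives run. Effects within 1 depot that lie near 0 were not held to this: the brown effect of Acsl5, -0.07, was 0.09 without labelled knockout brown library 1. The number of genes whose effects differed (1517) was 2351 by DESeq2 and 3652 by limma-voom under library weights, and ran from 632 to 3571 with 1 library left out. The inguinal effect (2249) had 3858 and 3522 calls with library and group weights, 4498 with inguinal libraries alone, and 1015 to 3602 with 1 library left out. The brown effect (1151) had 2065 calls with DESeq2, 3738 and 387 with library and group weights, 41 with brown libraries alone, and 390 to 4116 with 1 library left out. The opposite class (81) numbered 44 with no filter, 173 with DESeq2, 488 and 40 with library and group weights, 8 with each depot alone, and 26 to 502 with 1 library left out. The class limited to inguinal fat (744) numbered 1130 with DESeq2, 1198 with library weights, and 304 to 1111 with 1 library left out. The class limited to brown fat (287) numbered 187 with no filter, 532 with DESeq2, 1323 and 158 with library and group weights, 20 with each depot alone, and 115 to 1343 with 1 library left out. The cause of these shifts was not tested.

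With the replicate block the counts were 1624 for the difference, 2165 inguinal, 937 brown, 75 opposite, 807 limited to inguinal and 262 limited to brown fat, and no named gene lost its call. DESeq2 size factors gave 1522 differences, no filter 1152 and the filter at 5 CPM 1463. With a size limit of 0.3, or none, 607 or 836 genes were limited to inguinal and 204 or 347 to brown fat. For the 56 named genes, 439 values under other settings kept their call and 6 lost it. The losses were Fkbp5 and Dgat2 with no filter, Myh4 with both kinds of weights, and Nr4a1 and Irf4 with group weights. With 1 library left out, 805 kept it and 35 lost it. The largest shift of the median difference of all genes was -0.0417, with no filter. Depth limits Il33, Spp1, Grip1 and Npas2, whose mean was under 1 CPM in 1 or more groups.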
